A study of Mus musculus with 9 samples.

Results

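The genes described here are the 7 cyclin-dependent kinase (CDK) inhibitor genes of the mouse, the CIP/KIP genes Cdkn1a, Cdkn1b, and Cdkn1c and the INK4 genes Cdkn2a, Cdkn2b, Cdkn2c, and Cdkn2d. They were taken by symbol from the 43346 genes of the deposited count table, and each symbol matched 1 row. All 7 passed the filter of the test, an average count of 25 or more over the libraries, as did 16877 genes in all.

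CDKs bound to cyclins drive the cell through the division cycle. INK4 proteins bind CDK4 and CDK6 and keep D cyclins from activating them, which holds the retinoblastoma protein (Rb1) in its growth-restraining state. CIP/KIP proteins bind assembled cyclin-CDK complexes, CDK2 complexes above all, and p21, the product of Cdkn1a, is a well-known target of the p53 tumor suppressor. Cdkn2a and Cdkn1a are widely used as markers of cellular senescence, the lasting arrest described in fibrotic and aged lung, and senescent cells are recognized by several features together, of which an inhibitor transcript is only one.

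Lung fibroblasts were sorted from male aged Col1a1-GFP mice as GFP+, CD45-, CD31-, EpCAM- cells and sequenced as bulk RNA. The GFP reporter is driven by the collagen I promoter, so the sort kept cells in which this promoter was active and removed hematopoietic, endothelial, and epithelial cells. The aged sham group (n = 4) had received a single dose of saline into the trachea and the aged bleo group (n = 5) a single dose of bleomycin, a drug that breaks DNA and causes lung fibrosis, and both were studied on day 30. The sample labels give an age of 72 weeks and the design text 18 months for all these mice.

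The libraries held 49921946 to 68260600 counted reads. About 3 counts is the upper 95% limit on the mean behind a count of 0. In these libraries 3 counts corresponded to 0.0409 to 0.0604 CPM, which are counts scaled to library size. The fibroblast markers carried the label, with 7 genes summing to 24480 to 30220 CPM in each aged sham library and 54370 to 71780 CPM in each aged bleo library, of which the 3 collagen genes were higher in aged bleo in the test given with the inhibitors. The matrix proteoglycan gene Dcn and Tcf21, a transcription factor of lung fibroblasts, were lower (log2 fold changes -1.54 and -1.10). Markers of other cells were also detected. Endothelial markers summed to 10.5 to 17.1 CPM, and the epithelial marker sum reached 80.0 CPM among aged sham libraries and 51.2 CPM among aged bleo libraries. Neutrophil markers summed to 150 to 924 CPM across the aged sham libraries and 70.0 to 820 CPM across the aged bleo libraries, with none of 5 tested genes called, and 3 of 5 tested T, NK, and B cell markers were lower, at sums of 14.5 CPM or less. Macrophage markers were the list that moved most plainly with treatment, with 4 of 6 genes higher in aged bleo and sums of 130 to 244 CPM across the aged sham libraries and 434 to 1375 CPM across the aged bleo libraries, and none of the 6 was at 0. Pan-leukocyte markers reached 508 CPM in aged bleo 4 and 327 CPM in aged sham 4, against 89.4 to 174 CPM in the other libraries. The names of all aged sham libraries and of aged bleo 4 end in the same number, while those of the other aged bleo libraries end in 2 others, and no source explains this number.

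Of the 7 inhibitor genes, the INK4 genes Cdkn2a, Cdkn2b, and Cdkn2c rose in aged bleo, the CIP/KIP gene Cdkn1c fell, and Cdkn1a, Cdkn1b, and Cdkn2d were not called. The rises ranged from 2.91-fold to 4.88-fold, and Cdkn1c was 2.98-fold lower. A gene was called when its FDR was below 0.10 and its fold change above 1.5 in edgeR's quasi-likelihood test, with FDR the Benjamini-Hochberg adjusted p over all genes tested. By this rule 12.3% of all tested genes were higher and 11.5% lower in aged bleo, 23.8% in all. The 3 genes that rose lay above aged sham in every aged bleo library, as did 16.1% of tested genes, and Cdkn1c lay below in every one, as did another 16.1%. The median log2 fold change was 1.77 over the 4 INK4 genes and -0.06 over the 3 CIP/KIP genes, beside 0.01 over all tested genes. In these bulk samples, more or fewer cells with a transcript and more or less of it per cell cannot be told apart.

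**Figure D1:**
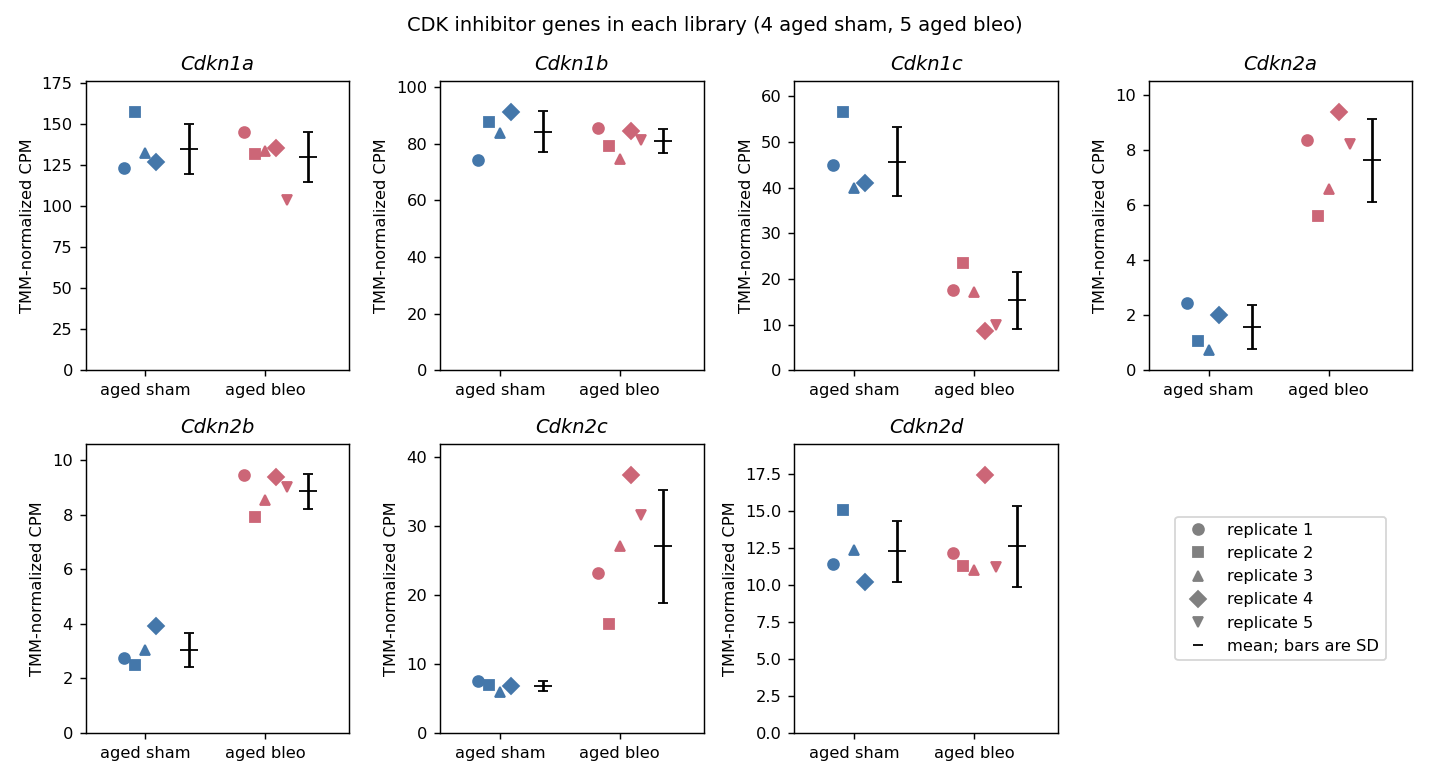
TMM-normalized CPM (vertical axes, linear from 0, scaled to each gene) of the 7 CDK inhibitor genes in the 4 aged sham (blue) and 5 aged bleo (red) libraries, 1 symbol per replicate, with the mean and SD in black. Groups do not overlap for Cdkn1c, Cdkn2a, Cdkn2b, and Cdkn2c and overlap for Cdkn1a, Cdkn1b, and Cdkn2d.

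Cdkn2a (ENSMUSG00000044303, chromosome 4, 89274471 to 89294653, GRCm38, minus strand) encodes 2 unrelated proteins from separate first exons, p16Ink4a, which binds CDK4 and CDK6, and p19Arf, which frees p53 from Mdm2. It was at 2.44, 1.08, 0.720, and 2.01 CPM in aged sham 1 to 4, and at 8.36, 5.59, 6.61, 9.39, and 8.21 CPM in aged bleo 1 to 5. The lowest aged bleo library was above the highest aged sham library, and the aged sham libraries varied more, relative to their mean, than the aged bleo libraries. The counts behind these values were 37 to 151 reads in aged sham and 315 to 689 reads in aged bleo. Cdkn2a was 4.88-fold higher in aged bleo (log2 fold change 2.29, SE 0.35, 95% interval 1.49 to 3.08, edgeR FDR 0.00179), the largest of the 7 fitted changes. On the log2(FPKM + 1) scale, which compresses low values, its difference was 1.29, below the 1.34 of Cdkn2c. The transcript of p16Ink4a starts at 89282192 and that of p19Arf at 89294653 in GENCODE M21, and both share later exons, so that the deposited count adds them up and their shares were not separated here.

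Cdkn2b (ENSMUSG00000073802, chromosome 4, 89306289 to 89311032, minus strand), the neighbor of Cdkn2a, encodes p15Ink4b, an inhibitor of CDK4 and CDK6 known to be induced by TGF-β in other cells. It was at 2.74, 2.496, 3.05, and 3.93 CPM in aged sham 1 to 4, and at 9.48, 7.94, 8.55, 9.39, and 9.02 CPM in aged bleo 1 to 5. The aged bleo libraries lay close together and well above all aged sham libraries. Cdkn2b was 2.91-fold higher in aged bleo (log2 fold change 1.54, SE 0.15, 95% interval 1.21 to 1.87, edgeR FDR 1.47e-04), the smallest error among the genes that rose. On the log2(FPKM + 1) scale its difference was 0.97. Of the genes around the locus, Mtap, an enzyme of methionine salvage, had a log2 fold change of 0.10 (FDR 0.519) and Klhl9 of -0.01 (FDR 0.891), and neither was called. Dmrta1 was below the filter.

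The sequences before the start sites of Cdkn2a and Cdkn2b are shown because these adjacent genes rose together. They were taken from the RefSeq promoter table of GRCm38.p6, which matched 6 of the 7 inhibitor genes, and are written 5′ to 3′ on the minus strand, with bases that GENCODE M21 places in an exon left out. Capitals mark a match to the GC box GGGCGG on either strand, the binding motif of Sp1. The windows are chr4:89294654-89294769 for p19Arf, chr4:89282193-89282342 for p16Ink4a, and chr4:89311040-89311182 for Cdkn2b.
Cdkn2a, p19Arf start: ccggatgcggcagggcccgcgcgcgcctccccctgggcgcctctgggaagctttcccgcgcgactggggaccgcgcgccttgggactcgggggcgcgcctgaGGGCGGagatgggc
Cdkn2a, p16Ink4a start: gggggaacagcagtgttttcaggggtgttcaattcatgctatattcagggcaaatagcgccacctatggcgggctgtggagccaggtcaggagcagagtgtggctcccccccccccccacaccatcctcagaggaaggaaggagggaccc
Cdkn2b: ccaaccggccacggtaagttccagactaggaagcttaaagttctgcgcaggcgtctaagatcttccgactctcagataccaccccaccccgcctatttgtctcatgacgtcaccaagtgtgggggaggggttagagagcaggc
The windows searched were the 150 bases before each RefSeq start, which for p19Arf is 89294619, inside the GENCODE M21 transcript. The p19Arf window held 2 GC boxes, 1 of them in the stretch shown and 1 inside the GENCODE M21 transcript, and the p16Ink4a and Cdkn2b windows held none. A GC box was found in 28.6% of 32851 RefSeq promoter windows of this length. The E-box CACGTG, found in 4.3% of windows, and the E2F motifs TTTCGCGC and TTTGGCGC, found in 0.423%, matched none of the promoter windows of the 6 genes.

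Cdkn2c (ENSMUSG00000028551, chromosome 4, 109660876 to 109667189, minus strand) encodes p18Ink4c, a further inhibitor of CDK4 and CDK6. It was at 7.50, 6.99, 5.86, and 6.81 CPM in aged sham 1 to 4, and at 23.2, 15.8, 27.1, 37.4, and 31.6 CPM in aged bleo 1 to 5. Aged bleo 2 was the lowest and aged bleo 4 the highest of the injured libraries, and none overlapped with aged sham, which spanned a narrow range. Cdkn2c was 3.98-fold higher in aged bleo (log2 fold change 1.99, SE 0.23, 95% interval 1.48 to 2.51, edgeR FDR 3.84e-04). The gene has 2 protein-coding transcripts that start apart, and the downstream promoter, chr4:109665373-109665522 on the minus strand, is shown as the window with the least G and C of those searched. It held 42.7% G and C, beside a median of 54% over all windows, and none of the motifs searched.
Cdkn2c, downstream start: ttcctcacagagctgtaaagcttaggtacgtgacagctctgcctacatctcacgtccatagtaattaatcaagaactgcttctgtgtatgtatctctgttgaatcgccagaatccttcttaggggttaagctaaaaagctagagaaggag
The other RefSeq start of Cdkn2c, 109666756, lies inside the longer GENCODE M21 transcript, which starts at 109667189, and the window before this RefSeq start held 81.3% G and C and 3 GC boxes.

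Cdkn2d (ENSMUSG00000096472, chromosome 9, 21288463 to 21291209, minus strand) encodes p19Ink4d, the INK4 protein whose level is known to oscillate in the cell cycle. It was at 11.4, 15.0, 12.4, and 10.2 CPM in aged sham 1 to 4, and at 12.2, 11.3, 11.0, 17.4, and 11.2 CPM in aged bleo 1 to 5. Aged bleo 4 was the highest library, and the other 4 aged bleo libraries lay inside the range of aged sham. The log2 fold change was 0.04 (SE 0.17, 95% interval -0.33 to 0.42, edgeR FDR 0.865), and its sign turned without aged bleo 4 (-0.11) or without aged sham 4 (-0.04). The interval lay within the 1.5-fold threshold on both sides.

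Cdkn1a (ENSMUSG00000023067, chromosome 17, 29090979 to 29100722, plus strand), the gene of p21, was the most abundant inhibitor per length. It was at 123, 158, 132, and 127 CPM in aged sham 1 to 4, and at 145, 132, 134, 136, and 104 CPM in aged bleo 1 to 5. The groups overlapped, and the highest library was aged sham 2 and the lowest aged bleo 5. The log2 fold change was -0.05 (SE 0.11, 95% interval -0.30 to 0.19, edgeR FDR 0.731), an interval within the 1.5-fold threshold, and its sign turned without either of these libraries (0.03 and 0.02). Of the 50-base stretches of its transcripts, 8.49% also occur in other genes. The upstream promoter of Cdkn1a, chr17:29090829-29090975 on the plus strand, is shown for the 2 matches to the p53 decamer that it holds, in capitals, 73 and 51 bases before the start at 29090979. A full p53 response element is made of a pair of such decamers, and only single exact matches were searched. Decamers with a mismatch therefore carry no capitals, and whether the marked ones belong to a full element was not tested. At least 1 match to the decamer was found in 4.01% of RefSeq promoter windows, and the Cdkn2d window held 1, 102 bases before its RefSeq start at 21291209. That Cdkn2d match lies inside a GENCODE M21 transcript of the gene, which starts at 21291407.
Cdkn1a, upstream start: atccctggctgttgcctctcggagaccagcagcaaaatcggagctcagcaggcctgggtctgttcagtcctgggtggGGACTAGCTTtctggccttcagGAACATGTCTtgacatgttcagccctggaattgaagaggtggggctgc
The downstream Cdkn1a promoter held no such match and 2 GC boxes.

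The p53 pathway was read beside Cdkn1a. Trp53, the gene of p53 itself, averaged 56.5 ± 4.03 CPM over aged sham (SD, n = 4) and 56.4 ± 3.38 CPM over aged bleo (SD, n = 5), with an FDR of 0.987. Mdm2, the ligase that degrades p53 and is also its target, was at 60.0 to 64.0 CPM across the aged sham libraries and 69.9 to 80.3 CPM across the aged bleo libraries. All aged bleo libraries were thus higher, but the log2 fold change of 0.25 (SE 0.06, edgeR FDR 0.0112) stayed under the fold threshold. Of 18 p53 target genes other than Cdkn1a, 3 were called higher and 1 lower, beside 12.3% and 11.5% of all tested genes. Their median log2 fold change was 0.28. Those higher were Phlda3, an inhibitor of AKT (0.66, FDR 0.00810), Plk2, a stress-induced kinase (1.43, FDR 0.00160), and Gtse1, which is expressed in dividing cells (2.66, FDR 0.00932). Perp, a membrane protein of cell junctions, was lower (-1.40, FDR 0.00187). Gdf15, a secreted stress factor, had a log2 fold change of 0.00 (FDR 0.993), and 14 of the 18 log2 fold changes were positive. The list summed to 1428 to 1717 CPM across the aged sham libraries and 1277 to 1427 CPM across the aged bleo libraries. This sum went the reverse way of the median, and Btg2 made up the largest part of it. Btg2 averaged 951 ± 117 CPM over aged sham (SD, n = 4) and 635 ± 100 CPM over aged bleo (SD, n = 5). Its log2 fold change of -0.58 (edgeR FDR 0.0123) stayed under the fold threshold.

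Cdkn1b (ENSMUSG00000003031, chromosome 6, 134920401 to 134925513, plus strand) encodes p27, which holds CDK2 inactive in resting cells and is controlled mainly through its degradation. It was at 74.2, 87.8, 83.7, and 91.2 CPM in aged sham 1 to 4, and at 85.4, 79.2, 74.7, 84.4, and 81.4 CPM in aged bleo 1 to 5. Every aged bleo library lay within the range of aged sham. The log2 fold change was -0.06 (SE 0.08, 95% interval -0.22 to 0.11, edgeR FDR 0.592), the narrowest interval of the 7. Of 12 genes of the ligases that degrade p27, p21, and p57, 2 were higher and none lower, beside 12.3% and 11.5% of all tested genes. Their median log2 fold change was 0.22. Skp2, the substrate receptor for p27, rose from 4.03 ± 0.707 CPM (SD, n = 4) to 7.16 ± 2.60 CPM (SD, n = 5), with overlapping libraries (log2 fold change 0.83, SE 0.26, edgeR FDR 0.0364). Dtl, the receptor through which p21 is degraded in S phase, was higher as well (2.56, FDR 0.0229). Cks1b, the cofactor of Skp2, had a log2 fold change of 0.40 (FDR 0.341) and was not called. Transcript levels do not show how much p27 or p21 protein was present.

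Cdkn1c (ENSMUSG00000037664, chromosome 7, 143458350 to 143461050, minus strand) encodes p57, an inhibitor linked with quiescence and expressed from the maternal allele of an imprinted domain. It was at 44.9, 56.5, 40.0, and 41.0 CPM in aged sham 1 to 4, and at 17.5, 23.5, 17.1, 8.48, and 9.82 CPM in aged bleo 1 to 5. All aged bleo libraries were below all aged sham libraries, with aged bleo 4 and 5 lowest. Cdkn1c was 2.98-fold lower in aged bleo (log2 fold change -1.58, SE 0.28, 95% interval -2.21 to -0.94, edgeR FDR 0.00359). Of 8 other genes of the domain, 5 were tested and 1 was called, Slc22a18, a membrane transporter gene next to Cdkn1c, which fell from 8.13 ± 1.14 CPM (SD, n = 4) to 3.03 ± 1.40 CPM (SD, n = 5; log2 fold change -1.42, SE 0.34, edgeR FDR 0.0123). Kcnq1ot1, the long noncoding RNA of the paternal allele that silences the domain, had a log2 fold change of -0.28 (FDR 0.198). Phlda2, Kcnq1, and Ascl2 were below the filter. The library kit named in the labels, TruSeq RNA Sample Prep Kit v2, does not mark strand, and 24.9% of the 50-base stretches of the Cdkn1c transcripts also lie in Gm44732, a gene of GENCODE M21 on the other strand, so that reads of both cannot be told apart.

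Levels of different genes were compared per length, as deposited FPKM (fragments scaled to gene length and library total). In aged sham the order from the highest mean level was Cdkn1a (25.5 ± 3.22 FPKM, SD, n = 4), Cdkn1c (9.93 ± 1.76), Cdkn1b (7.77 ± 0.655), Cdkn2d (4.05 ± 0.736), Cdkn2c (1.06 ± 0.105), Cdkn2b (0.918 ± 0.173), and Cdkn2a (0.557 ± 0.280). Neighbors in this order did not overlap between libraries down to Cdkn2c, while Cdkn2c overlapped with Cdkn2b and Cdkn2b with Cdkn2a. In aged bleo the order was Cdkn1a (25.2 ± 3.13 FPKM, SD, n = 5), Cdkn1b (7.67 ± 0.603), Cdkn2c (4.36 ± 1.42), Cdkn2d (4.29 ± 1.07), Cdkn1c (3.38 ± 1.30), Cdkn2a (2.81 ± 0.635), and Cdkn2b (2.75 ± 0.266). Below Cdkn1b, each gene overlapped with its neighbors in this order, while Cdkn2d lay above Cdkn2a and Cdkn2b in every library. Cdkn2c and Cdkn2d changed places between libraries. Even after its rise, the FPKM level of Cdkn2a in aged bleo stayed well below that of Cdkn1a, and its mean over all 9 libraries exceeded 45.6% of tested genes, beside 95.4% for Cdkn1a. The length that the deposited FPKM used for Cdkn1a, 2223 bases, is shorter than the 3553 bases that all its GENCODE M21 exons cover, and the level per length depends on it.

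**Figure D2:**
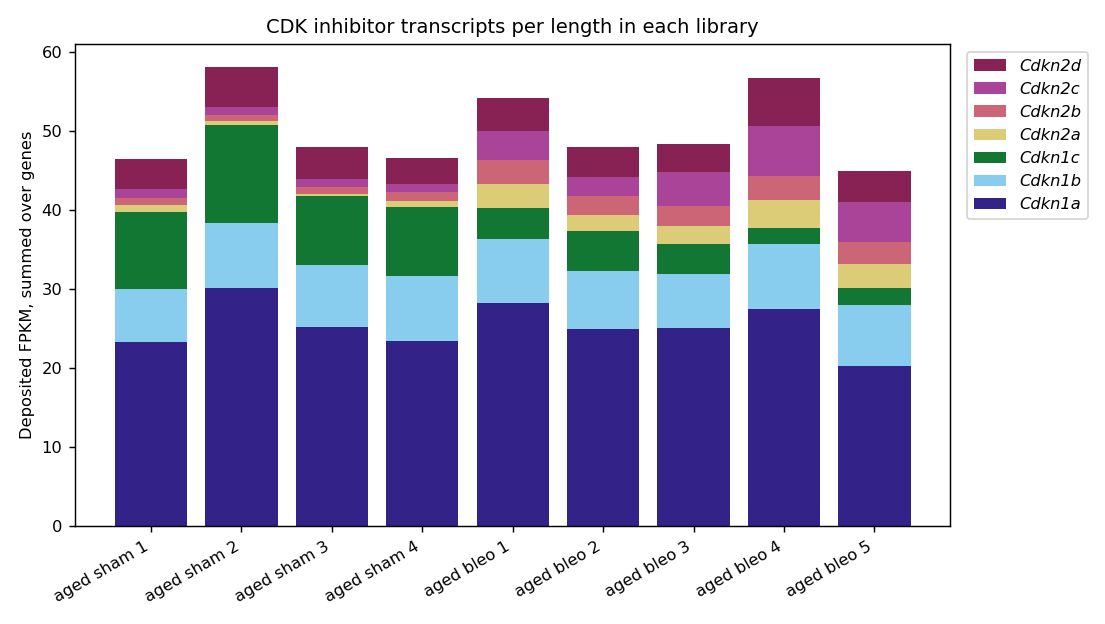
Deposited FPKM (vertical axis, linear from 0) of the 7 CDK inhibitor genes, stacked for each of the 9 libraries (horizontal axis). The stacks reach 46.5 to 58.2 in aged sham and 44.9 to 56.8 in aged bleo, and the INK4 segments at the top are larger in every aged bleo library.

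Added over the 7 genes, the FPKM level was 46.5 to 58.2 in aged sham and 44.9 to 56.8 in aged bleo, and the groups overlapped. What differed was the composition. The INK4 genes made up 12.5 to 14.3% of this sum in aged sham and 25.7, 22.1, 26.3, 33.5, and 32.8% in aged bleo 1 to 5. Cdkn1c made up 18.3 to 21.4% in aged sham and 3.47 to 10.7% in aged bleo, and Cdkn1a made up overlapping shares of 50.1 to 52.5% and 45.0 to 52.1%. The stacked plot of FPKM per library shows the INK4 part growing as the Cdkn1c part shrinks.

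Whether related genes responded differently was tested on the difference of their log2 CPM values in each library, for 4 pairs within the families (exact permutation test, two-sided, with 0.00794 as the smallest possible p and Benjamini-Hochberg adjustment over the 4). The difference of Cdkn1a from Cdkn1c was 1.57 ± 0.13 (SD, n = 4) in aged sham and 3.18 ± 0.56 (SD, n = 5) in aged bleo (change 1.60, exact p 0.00794, adjusted 0.0159). The difference of Cdkn2c from Cdkn2d was -0.84 ± 0.29 in aged sham and 1.06 ± 0.39 in aged bleo (change 1.90, exact p 0.00794, adjusted 0.0159). The neighbors Cdkn2a and Cdkn2b differed by -1.08 ± 0.77 in aged sham and -0.24 ± 0.20 in aged bleo, and this change of 0.85 did not pass after adjustment (exact p 0.0397, adjusted 0.0529). The change was 1.15 without aged sham 1 (adjusted exact p 0.0238) and 0.53 without aged sham 3 (adjusted exact p 0.119). Cdkn1a and Cdkn1b kept the difference of 0.68 ± 0.15 in aged sham and 0.68 ± 0.19 in aged bleo (exact p 0.984), and this p does not show that they respond alike.

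The kinases and cyclins on which the inhibitors act were read next, beside the 12.3% higher and 11.5% lower among all tested genes. Of the D cyclins and CDK4/6, the partners of the INK4 proteins, 3 of 5 rose, with a median log2 fold change of 0.69. Cdk6 was at 4.50 to 12.9 CPM across the aged sham libraries and 13.4 to 20.6 CPM across the aged bleo libraries (log2 fold change 1.30, SE 0.32, edgeR FDR 0.0132), and Ccnd2 rose by 0.69 (FDR 0.00310). Ccnd1, cyclin D1, was at 52.2 CPM in aged sham 1 and 16.1 to 17.0 CPM in the other aged sham libraries, and at 41.0 to 153 CPM in aged bleo (log2 fold change 1.88, SE 0.49, edgeR FDR 0.0170). Aged sham 1 was thus above the lowest aged bleo library. Cdk4 had a log2 fold change of 0.43 (FDR 0.0477), under the fold threshold, and Ccnd3 of -0.17 (FDR 0.184).

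Of the E and A cyclins and CDK2, the partners of CIP/KIP proteins, 2 of 4 tested genes rose, Ccne1 (log2 fold change 2.79, SE 0.58, edgeR FDR 0.00671) and Ccna2 (2.26, SE 0.55, edgeR FDR 0.0134). Cdk2 itself (0.47, FDR 0.0831) and Ccne2 (0.45, FDR 0.162) were not called, and Ccna1 was below the filter. Cdk1 and the B cyclins Ccnb1 and Ccnb2, which drive mitosis, all rose, by log2 fold changes of 3.38, 3.50, and 2.95 (edgeR FDR 0.0170, 0.0150, and 0.0107), each with overlapping libraries. Of 11 pocket protein and E2F genes, which act downstream of the kinases, 4 rose, Rbl1 (0.85), E2f3 (1.20), E2f7 (2.15), and E2f8 (2.95). Rb1 had a log2 fold change of -0.11 (FDR 0.251). Rbl2, the pocket protein of resting cells, was lower in every aged bleo library, by -0.46 on the log2 scale (FDR 0.00866), under the fold threshold.

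**Figure D3:**
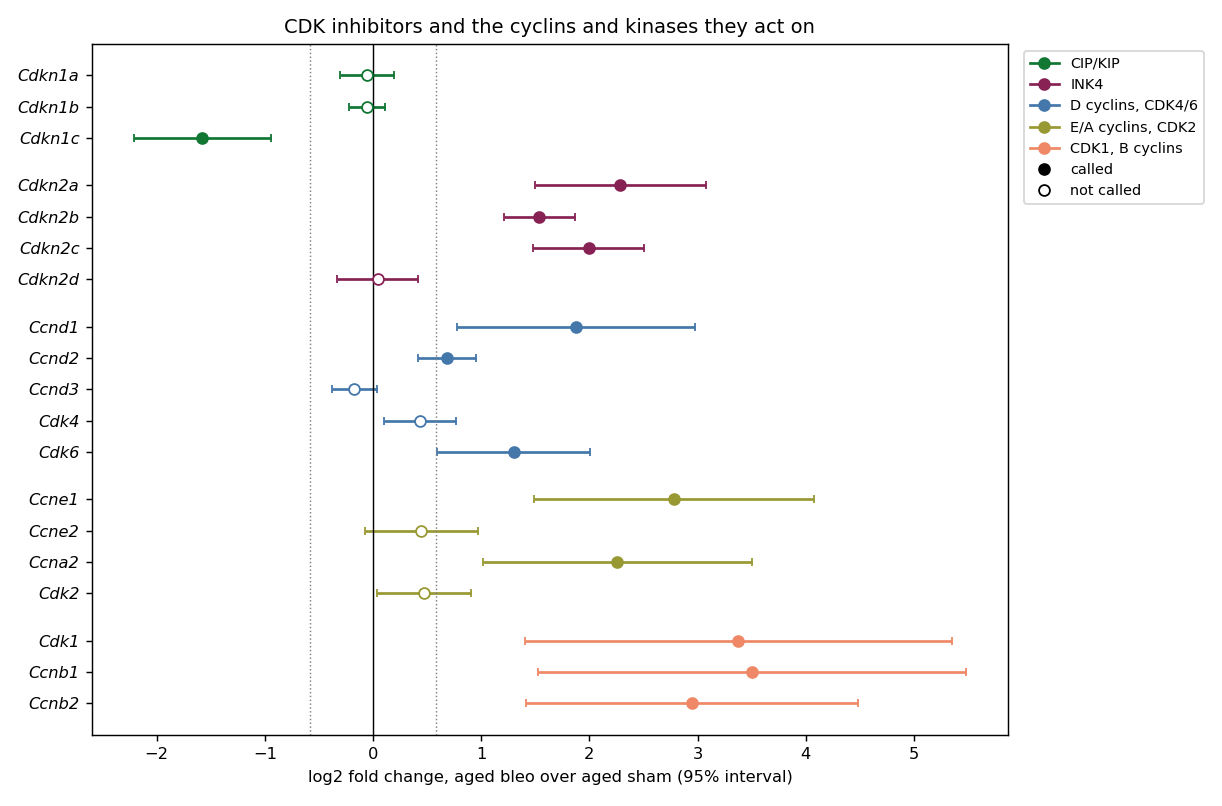
Log2 fold change of aged bleo over aged sham (horizontal axis) with its 95% interval for the 7 inhibitor genes and the tested cyclin and CDK genes (rows), colored by group, with filled symbols for called genes and dotted lines at the 1.5-fold threshold. Cdkn1c lies to the left at -1.58, Cdkn2a, Cdkn2b, and Cdkn2c at 2.29, 1.54, and 1.99, and no called cyclin or kinase lies left of 0.

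The order of the aged bleo libraries was set beside the inhibitors as a description, with 5 libraries that share one treatment and no test. The 14 proliferation markers, of which 12 were called higher and none lower, summed to 231, 149, 142, and 145 CPM in aged sham 1 to 4 and to 254, 177, 304, 647, and 565 CPM in aged bleo 1 to 5. From the highest, Cdkn2c followed the order aged bleo 4, 5, 3, 1, 2, and so did the summed proliferation markers, the sum of Cdk1 and the B cyclins, and the sum of the D cyclins and CDK4/6. The sum of the nuclear lamina and chromatin genes described below had this order too, and the share of all tested genes with it was not counted. Cdkn2c and the proliferation markers also shared the order 1, 2, 4, 3 in aged sham. Cdkn1c had the reverse order in aged bleo, 2, 1, 3, 5, 4, but not in aged sham, where its order was 2, 1, 4, 3. Cdkn2a had the order 4, 1, 5, 3, 2 and Cdkn2b 1, 4, 5, 3, 2, so that aged bleo 1, with few proliferation markers, was among the highest for both. Aged bleo 2, with 177 CPM of proliferation markers, held 15.8 CPM of Cdkn2c and 5.59 CPM of Cdkn2a. Aged sham 1, the highest aged sham library for these markers at 231 CPM, held 7.50 and 2.44 CPM. Depth and library composition are shared by all genes of a library, and the part of proliferation in the inhibitor changes was not tested.

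**Figure D4:**
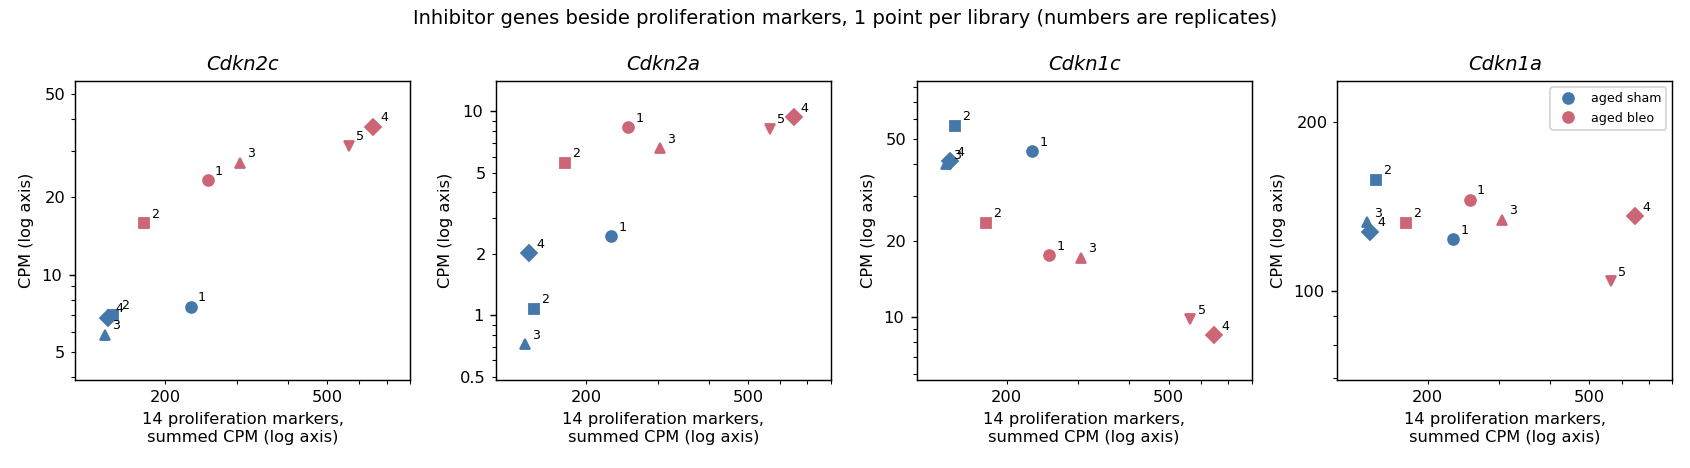
CPM of Cdkn2c, Cdkn2a, Cdkn1c, and Cdkn1a (vertical axes, log scale) against the summed CPM of 14 proliferation markers (horizontal axes, log scale), 1 point per library numbered by replicate, aged sham in blue and aged bleo in red. Among aged bleo libraries Cdkn2c is highest and Cdkn1c lowest in replicate 4, at 647 CPM of proliferation markers, and Cdkn1a shows no such order.

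Regulators of the inhibitor genes moved in both directions, and so did all tested genes, of which 12.3% were called higher and 11.5% lower. Of 10 Polycomb and other repressors of the INK4 locus, 2 rose and 1 fell, with a median log2 fold change of 0.12. Bmi1, a subunit of Polycomb complex 1 that represses Cdkn2a, was at 40.8 to 45.5 CPM across the aged sham libraries and 60.2 to 84.9 CPM across the aged bleo libraries (log2 fold change 0.72, SE 0.10, edgeR FDR 0.00111). Ezh2, the methyltransferase of Polycomb complex 2, rose by 0.86 (FDR 0.0183), and Cbx7, a chromodomain subunit, fell from 59.5 ± 3.45 CPM (SD, n = 4) to 30.5 ± 11.0 CPM (SD, n = 5; log2 fold change -0.96, FDR 0.0148). Of 13 tested activators of the inhibitor genes, 1 rose and 2 fell, with a median of -0.11. Ets1, an activator of Cdkn2a, rose (0.81, FDR 0.00250), Klf4, an activator of Cdkn1a, fell (-1.53, FDR 0.00626), and Foxo1, an activator of Cdkn1a and Cdkn1b, fell from 116 ± 12.5 CPM (SD, n = 4) to 56.1 ± 17.6 CPM (SD, n = 5; -1.05, FDR 0.00618). Foxo3, a related factor, was higher in every aged bleo library, at a log2 fold change of 0.39 (FDR 0.00519), under the fold threshold.

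Other features linked with senescence were described in the same way. Of 5 nuclear lamina and chromatin genes known to be lowered in senescent cells, none was lower and 1 was higher. Among all tested genes 11.5% were lower and 12.3% higher. The gene called higher was Hells, a chromatin remodeler expressed in dividing cells (log2 fold change 2.23, FDR 0.0110). Lmnb1, lamin B1, varied between 33.5 and 92.2 CPM in aged sham and between 22.0 and 110 CPM in aged bleo. It was highest in aged sham 4 and aged bleo 4, the libraries with the most pan-leukocyte markers, and the part of leukocytes was not tested. The log2 fold change of Lmnb1 was -0.12 (SE 0.48, 95% interval -1.20 to 0.95, edgeR FDR 0.865), an interval too wide to exclude a change beyond the threshold either way. Of 16 secreted factors linked with senescence, 4 were higher and 3 lower, beside 12.3% and 11.5% of all tested genes. Their median log2 fold change was -0.00. The matrix metalloproteinase genes Mmp12 and Mmp13 rose by 6.61 and 6.59 on the log2 scale, the growth factor gene Hgf by 1.51, and the chemokine gene Cxcl5 by 2.39, while the cytokine gene Il6, the chemokine gene Cxcl1, and Igfbp4 had log2 fold changes of -1.48, -1.05, and -0.73. Macrophages are also known to express Mmp12, and the macrophage markers moved with treatment as given above. Cdkn3, a phosphatase gene that is no inhibitor of this kind despite its name, rose by 2.71 (FDR 0.0142), Cdkn2aip had a log2 fold change of -0.45 (FDR 0.00859), under the fold threshold, and Cdkn2aipnl of 0.01 (FDR 0.956).

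Markers of other cells were set beside the inhibitor changes. Aged bleo 1 had the fewest macrophage markers of the injured libraries, 434 CPM, and held 8.36 CPM of Cdkn2a and the most Cdkn2b, 9.48 CPM, and the part of macrophages in the inhibitor changes was not tested. When aged bleo 4 and aged sham 4, which had the most leukocyte markers, were left out, the log2 fold changes were 2.33 for Cdkn2a, 1.64 for Cdkn2b, 1.83 for Cdkn2c, and -1.49 for Cdkn1c (edgeR FDR 0.00727, 4.51e-04, 0.00240, and 0.00702). This choice was made after the data were seen, and the 4 calls were the same. Aged bleo 4, whose library name ends like those of aged sham, held 9.39 CPM of Cdkn2a, 9.39 of Cdkn2b, 37.4 of Cdkn2c, and 8.48 of Cdkn1c, each on the side of the other aged bleo libraries. No other aged bleo library shares that number, so the number and the treatment are nearly confounded, and its part in the changes was not tested. Smooth muscle and pericyte markers summed to 2542 to 5169 CPM across the aged sham libraries and 1763 to 2829 CPM across the aged bleo libraries, with 2 of 6 lower, and their part in the fall of Cdkn1c was not tested.

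For each inhibitor, the genes with the most similar pattern over the 9 libraries were found among 15268 tested genes with a mean of at least 1 CPM, as those with the smallest root mean square difference of centered log2 CPM. Closest to Cdkn2c were Srpx2 (difference 0.108), a secreted protein with sushi repeats, Arhgef19 (0.112), and Sept9 (0.117). Closest to Cdkn1c were Selenbp1 (0.109), Irf1 (0.111), an interferon-regulated transcription factor, and Rarres2 (0.137), the precursor of chemerin. Cdkn2b was followed by Epha3 (0.174), an ephrin receptor, Dock5 (0.177), and Col16a1 (0.180), a collagen, and Cdkn2a by Gm26714 (0.221), 1810011O10Rik (0.223), and Batf3 (0.229), a transcription factor. The differences were larger for Cdkn2a and Cdkn2b, the genes with the lowest counts. The genes that were not called had close neighbors among others that moved little, Tpra1 (0.0420), Cxx1a (0.0428), and Adprhl2 (0.0486) for Cdkn1a, Bloc1s5 (0.0421), Fbxo8 (0.0432), and Smyd3 (0.0472) for Cdkn1b, and Oaz1 (0.0847), Cox6a1 (0.0912), and Id1 (0.0920) for Cdkn2d.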

How the data were processed

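Polyadenylated RNA of sorted aged fibroblasts was sequenced in 4 aged sham and 5 aged bleo libraries, 1 per mouse, grouped by their sample labels. The submitters' processing notes name bcl2fastq, STAR 2.5.2b, Subread, featureCounts, mm10, and GRCm38, and the annotation and strand setting are not given in the sources used here. The authors deposited whole-number read counts per gene without normalization. They also deposited FPKM values, scaled to the length of each gene and to library totals that were 2.27 to 2.42 times the summed counts. Of 42462 gene identifiers shared with GENCODE M21, 33460 had the same position.

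Counts were normalized by TMM and tested, without covariates, for the 16877 genes whose counts averaged 25 or more, in edgeR 4.0.16 (glmQLFit, glmQLFTest; R 4.3.3), where the paper used a moderated test. Intervals are 95% intervals from the fit. CPM values carry the TMM factors, and a prior count of 2 was used for their logarithms. Intervals and limits from counts cover counting error and the spread between these libraries only. No 2 libraries of a group were duplicates (chi-square per degree of freedom 28.7 to 412). The members and the 193 genes of 27 lists were chosen with earlier results of these data known. Named are the inhibitors, list genes as part of their lists, and the 3 closest genes to each inhibitor. Values are given for list genes acting directly with the inhibitors, for list genes that were called, and for some others. Alternatives were DESeq2 1.42.0, limma-trend (limma 3.58.1) on log2 CPM and on FPKM with a pseudocount of 0.1 or 1, a replicate block, a robust fit, RLE factors, library size alone, leaving out each library, stricter thresholds, and either no filter or 10 counts or more per library. The tests were tested on simulated data. Promoter motifs were searched with Python 3.11.15. The Cdkn1c promoter was not used here.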

Additional observations from a re-analysis of the deposited data

Results flagged for a closer look

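Among 14 sets of values, the 7 inhibitor genes in each of the 2 groups, 1 library stood apart. Cdkn2d in aged bleo 4 was at 17.4 CPM, and the next highest aged bleo library was at 12.2 CPM. The gap between them was 0.819 of the whole range of the group, above Dixon's 95% critical value for 5 libraries. Chance flags about 1 in 20 such sets. Aged bleo 4 also had the highest sums of pan-leukocyte (508 CPM), macrophage (1375 CPM), and proliferation markers (647 CPM) of the aged bleo libraries, and their part in the Cdkn2d value was not tested.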

How the results depend on the processing

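The same 3 inhibitor genes were called higher (Cdkn2a, Cdkn2b, and Cdkn2c) and the same 1 lower (Cdkn1c) under all 21 alternatives. Their log2 fold changes ranged from 1.29 to 2.59, 0.97 to 1.68, 1.34 to 2.13, and -1.79 to -1.36, with the smallest rises on log2(FPKM + 1), a scale that compresses low values. Of 140 single-gene values, 134 kept their direction and side of the threshold and 6 changed sign, all in genes not called. These were Cdkn1a with the replicate block (0.022), without aged sham 2 (0.026), and without aged bleo 5 (0.018), and Cdkn2d without aged sham 4 (-0.037), without aged bleo 4 (-0.11), and without both aged bleo 4 and aged sham 4 (-0.20, chosen after seeing the data). With each library left out, Cdkn1a ranged from -0.097 to 0.026 and Cdkn2d from -0.11 to 0.15. The count over all genes, 4022 (2082 higher, 1940 lower), became 1785 (960 and 825) on log2(FPKM + 1) and 2158 (1224 and 934) under the stricter rule of an FDR below 0.05 and a fold change above 2, and ranged from 3525 to 4597 with each library left out. The replicate block gave 3536 genes, 3377 of them shared, and the same calls of the inhibitors. Deviations of same-numbered libraries correlated by 0.09, 0.06, -0.13, and 0.33, and not every library correlated best with its own number, so the numbers were not taken as pairs. With each library left out, the change between Cdkn1a and Cdkn1c ranged from 1.40 to 1.78 and that between Cdkn2c and Cdkn2d from 1.79 to 2.05, and without any 1 aged bleo library the adjusted p of both was 0.0571, since 4 against 4 libraries allow no smaller one here. The change between Cdkn2a and Cdkn2b ranged from 0.53 to 1.15 (adjusted p 0.0238 to 0.152), the highest change without aged sham 1 and the lowest without aged sham 3, and that between Cdkn1a and Cdkn1b from -0.069 to 0.078. The low counts of Cdkn2a in aged sham, 37 to 151 reads, limit its precision, and changes of Cdkn1a, Cdkn1b, or Cdkn2d within their intervals were not detectable with these libraries.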
